A study of Mus musculus with 2 samples.

Results

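The transcripts of 9 genes of the angiotensin and endothelin systems were followed across the cell types of mouse perivascular adipose tissue, the fat that surrounds the aorta. The genes were taken by their symbols from the deposited feature lists, where each of the 9 was found once among 31053 features of both libraries. They comprised the endothelin-1 precursor Edn1, its processing enzyme Ece1, the endothelin receptors Ednra and Ednrb, the angiotensin precursor Agt, the converting enzyme Ace, the prorenin receptor Atp6ap2 and the angiotensin receptors Agtr1a and Agtr2. There were 2 libraries of wild-type (WT) primary perivascular stromal cells, 1 from young and 1 from old mice, prepared as single-cell 3′ libraries with 10x Genomics version 2 chemistry. Both came from fat dissected off the aorta, minced, digested with collagenase, strained and cleared of red blood cells. The age in months, sex and number of mice behind each library were not stated in the sources used here. With 1 library per age, animals, preparation and age cannot be told apart, no test between the ages was possible, and all intervals below cover counting error only.

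Endothelin-1 is a short peptide that constricts vessels. It is cut from a larger precursor by endothelin-converting enzyme, is secreted mainly by endothelium, and acts on 2 receptors: the A type, best known on smooth muscle and pericytes, and the B type, known on endothelium and on cells of the neural crest lineage. Angiotensinogen, secreted by liver and also by fat, is cut by renin to angiotensin I and by angiotensin-converting enzyme to angiotensin II. The type 1 receptor carries the constrictor and salt-retaining actions of angiotensin II, and the type 2 receptor is known chiefly from fetal mesenchyme and often opposes it.

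In these data Edn1 had its highest level in endothelium in both libraries. Endothelial cells held most of its UMIs in the old library. Stromal and mesothelial cells held most of them in the young, where only 49 blood endothelial cells were captured, against 1253 in the old. Ednra was held almost wholly by mesenchymal cells, which also made up most cells of both libraries. In the old library the pericyte-gated ones had the highest level. Ednrb had its highest levels in Schwann cells in the old library, with lower ones in endothelium and macrophages, and the many mesenchymal cells held a part of its UMIs at a low level per cell. Agtr1a was highest in mesothelial cells, Agt in adipocytes, and Agtr2 in the stromal cells of the young library. Among stromal cells Agt was raised in the adipogenic gate and, in the old library, in pericyte-gated cells as well. The sequence at the start of Edn1 is shown because Edn1 is the ligand on which the comparison of source and receptor turns. Edn1 lies on chromosome 13 from 42301476 to 42307990 on the + strand of GRCm38. The stretch printed is chr13:42301226-42301505 of RefSeq on GRCm38.p6, + strand, with 250 bases before and 30 bases from the annotated start, and capitals mark a match to the GATA motif AGATAA on the reverse strand.
Edn1: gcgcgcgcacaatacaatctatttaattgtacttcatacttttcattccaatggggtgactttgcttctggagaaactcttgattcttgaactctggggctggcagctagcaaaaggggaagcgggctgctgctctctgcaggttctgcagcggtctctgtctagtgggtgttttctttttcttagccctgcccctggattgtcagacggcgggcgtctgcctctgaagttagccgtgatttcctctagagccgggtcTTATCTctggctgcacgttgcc
The motif search covered both strands of the 300 bases from 250 before to 50 after each annotated start. In the Edn1 window the AGATAA match began 8 bases after the annotated start, not before it. AGATAA was found in 11.2% of 32851 RefSeq promoters. The AP-1 motif TGANTCA was not found in the Edn1 window and was present in 7.81% of promoters. The related form TGACTAA, which studies of the human gene describe as an AP-1 element beside a GATA element, began 36 bases after the annotated start, beyond the printed stretch, and was present in 2.35% of promoters. None of these motifs overlapped another, and a match of letters does not show that a factor binds.

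The young library held 13104 barcodes with 130398999 unique molecular identifiers (UMIs, 1 per captured transcript), and the old library 14636 barcodes with 147166475 UMIs. After filtering, 11453 young and 12207 old cells remained, with medians of 8916 and 9230 UMIs. A cell was placed in a type when it held a UMI of at least 3 different genes of that type's marker list. Mesenchymal cells, meaning those that passed the fibroblastic, smooth muscle or pericyte gate and no other, numbered 10727 young and 10342 old. Blood endothelial cells numbered 49 and 1253, mesothelial cells 400 and 86, Schwann cells 99 and 123, adipocytes 7 and 110 and macrophages 1 and 102. Levels in young endothelial cells, adipocytes and macrophages therefore rest on few cells. Collagen transcripts were widespread: 91.1% of the old endothelial cells also held 3 fibroblastic markers, and the summed level of the fibroblastic list was 2164 counts per 1000000 UMIs (CPM) in them against 6595 CPM in old mesenchymal cells. The pericyte-gated cells carried 8574 CPM of that list and 553 CPM of the pericyte list in the old library, so they were stromal cells with pericyte transcripts rather than cells free of fibroblastic ones. Smooth-muscle-gated cells also carried fibroblastic transcripts. Their Col1a1 stood at 1897 CPM (young) and 1425 CPM (old), against 2016 and 1685 CPM in fibroblastic cells. Their Pdgfra stood at 74.9 and 128 CPM, against 109 and 186 CPM. The 2 libraries shared 275 barcodes. Leaving them out shifted the log2 difference between libraries by at most 0.12 for any of the 9 genes.

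Edn1 was concentrated in endothelium. In the old library 1253 blood endothelial cells held 10200 Edn1 UMIs, a level of 691 CPM (95% Poisson interval 677 to 704), and 1002 of them (80%) had at least 1 UMI. The 16 old lymphatic endothelial cells held 122 UMIs, or 495 CPM (411 to 591). In the young library 49 blood endothelial cells held 416 UMIs, or 692 CPM (627 to 762), and 34 of them had a UMI. The endothelial levels of the 2 libraries lay within counting error of each other. The young value moved with the gate, since 14 of the 49 cells passed with exactly 3 markers, and it was 1175 CPM when 4 markers were asked for, against 790 CPM in the old library.

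Outside endothelium the libraries differed. Old mesenchymal cells held 770 Edn1 UMIs, or 7.16 CPM (6.66 to 7.69), and young ones 2159 UMIs, or 20.3 CPM (19.5 to 21.2), so the old level was 2.84-fold lower (log2 difference -1.51, interval -1.63 to -1.39). The lower old level was seen in each stromal gate that was compared, at -1.90 in adventitial, -1.84 in adipogenic and -1.70 in cycling fibroblastic cells and at -1.29 in smooth-muscle-gated cells. Mesothelial cells, the lining that covers the outer face of the fat, held 304 UMIs in the young library, or 67.6 CPM (60.2 to 75.6), and 9 UMIs in the old, or 10.8 CPM (4.92 to 20.4). The young mesothelial level was 3.32-fold above the young mesenchymal level (interval 2.94 to 3.75). Young Schwann cells held 5 UMIs, or 6.47 CPM, and old ones 6 UMIs, or 9.07 CPM. The old mesenchymal level did not differ from the old Schwann level beyond counting error, with a ratio of 0.789 (0.361 to 2.16), whereas the young mesenchymal level was 3.14-fold above the young Schwann level (1.34 to 9.69).

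The mesenchymal level of Edn1 was set beside 21 other endothelial genes, each as a percent of its own endothelial level in the same library. In the old library the mesenchymal level of Edn1 was 1.04% of the endothelial level, and all 21 genes were higher, from 1.10% to 8.32% with a median of 2.25%. Cdh5, the cadherin of endothelial junctions, stood at 1.19%. Of the 21 genes, 11 belong to the endothelial gate itself, which limits their mesenchymal level, and free RNA was not measured in empty droplets. In the young library Edn1 stood at 2.94%, above 15 of the 21 genes, whose median was 0.907%. The 6 genes above it included the receptors Flt1, Tek and Kdr. Some of the 21 genes may be transcribed at a low level by stromal cells themselves.

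**Figure D1:**
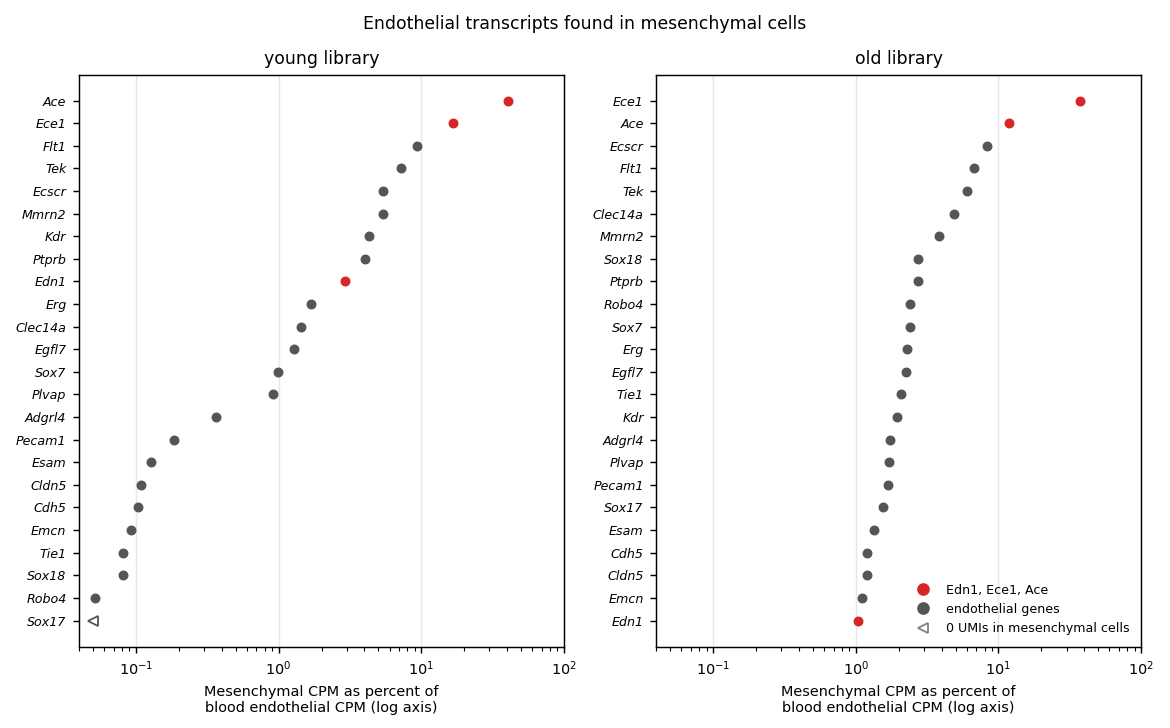
Mesenchymal CPM of each gene as a percent of its blood endothelial CPM (log axis), 1 point per gene and 1 panel per library, with Edn1, Ece1 and Ace in red and 21 endothelial genes in grey. Edn1 is the lowest point in the old library, at 1.04%, and lies above 15 of the 21 endothelial genes in the young library, at 2.94%, while Ece1 and Ace lie to the right of all of them in both.

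The source of the transcript pool differed accordingly. Old blood endothelial cells made up 10.3% of cells and held 91.4% of the library's 11159 Edn1 UMIs, and mesenchymal cells held 6.9%. In the young library, where blood endothelial cells made up 0.428% of cells, they held 14.4% of 2896 Edn1 UMIs, mesenchymal cells 74.6% and mesothelial cells 10.5%. These shares follow the mix of captured cells as well as the level per cell. With every cell thinned to 1000 UMIs, an Edn1 UMI was found in 49% of young and 44.6% of old blood endothelial cells, in 7.75% of young mesothelial cells, and in 1.75% of young and 0.736% of old mesenchymal cells. The same share in Schwann cells was 1.01% (young) and 1.63% (old).

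Ece1, the membrane protease that releases mature endothelin-1, was measured in all major types and was highest in endothelium. Its level was 181 CPM (149 to 219) in young and 210 CPM (202 to 217) in old blood endothelial cells and 247 CPM in the old lymphatic ones. With 4 markers per gate the young blood endothelial level was 278 CPM and the old one 230 CPM, so the order of the libraries turned. Mesenchymal cells held 3208 UMIs, or 30.2 CPM (29.2 to 31.3), in the young library and 8379 UMIs, or 77.9 CPM (76.3 to 79.6), in the old. The old mesenchymal level was 2.58-fold higher (log2 difference 1.37, interval 1.31 to 1.42), and the difference lay between 1.07 and 1.43 in the smooth-muscle-gated cells and the adventitial, adipogenic and cycling fibroblastic cells. It was also present outside the mesenchyme, at 19.1 CPM in young and 45.4 CPM in old mesothelial cells and 14.2 and 40.8 CPM in Schwann cells. In blood endothelial cells the log2 difference was 0.21, with an interval from -0.07 to 0.50, and whether it differed from that of mesenchymal cells was not tested. Relative to endothelium the mesenchymal level was 16.7% (young) and 37.2% (old), above all 21 endothelial genes in both.

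Ednra, the constrictor receptor coupled to Gq, was the endothelin receptor of the mesenchyme. Mesenchymal cells held 520 of 526 Ednra UMIs in the young library and 1057 of 1084 in the old. These were 98.9% of young and 97.5% of old Ednra UMIs, where mesenchymal cells made up 93.7% and 84.7% of all cells. The young level was 4.90 CPM (4.49 to 5.34) and the old level 9.83 CPM (9.25 to 10.4), a log2 difference of 1.00 (0.85 to 1.16), at the edge of 2-fold. The difference was smaller in adventitial (0.24, interval -0.16 to 0.66) and adipogenic fibroblastic cells (0.43, 0.07 to 0.81) than in cycling ones (1.12, 0.76 to 1.48). Within the old library, pericyte-gated cells held 70 UMIs, or 32.7 CPM (25.5 to 41.3), which was 3.42-fold above the fibroblastic level of 9.56 CPM (ratio interval 2.64 to 4.37). With 4 markers asked for, the old pericyte-gated level was 54.5 CPM. The 16 young cells that passed the pericyte gate held 5 UMIs, or 25.1 CPM (8.16 to 58.7), against 5.01 CPM in young fibroblastic cells. Cycling genes such as Nusap1, Racgap1 and Ccna2 stood among the 10 leading genes of those 16 cells beside Cox4i2 and Notch3, so the pericyte name is not borne out there. The 7 young adipocytes held 5 Ednra UMIs in 3 cells, or 53.5 CPM (17.4 to 125), and the 110 old ones none. Smooth-muscle-gated cells did not exceed fibroblastic cells in either library, at 4.31 CPM for young and 7.51 CPM for old cells. They also carried Col1a1 and Pdgfra, so the level of smooth muscle free of fibroblastic transcripts is not known. No Ednra UMI was found in 400 young and 86 old mesothelial cells or in 99 young and 123 old Schwann cells, which allows levels of up to 0.667, 3.58, 3.88 and 4.54 CPM. Old blood endothelial cells held 23 UMIs, or 1.56 CPM (0.987 to 2.34), which was 6.31-fold below mesenchymal cells. That endothelial level was 0.698 CPM with 4 markers per gate and 2.46 CPM without removing high doublet scores.

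Ednrb was distributed almost in the opposite way. Schwann cells held 11 UMIs, or 14.2 CPM (7.11 to 25.5), in the young library and 76 UMIs, or 115 CPM (90.5 to 144), in the old. Macrophages of the old library held 25 UMIs, or 34.1 CPM (22.1 to 50.3). Lymphatic endothelial cells held 15 UMIs, or 60.8 CPM (34.1 to 100), young blood endothelial cells 9 UMIs, or 15.0 CPM, and old ones 48 UMIs, or 3.25 CPM. Mesenchymal cells held 12 and 42 UMIs, or 0.113 and 0.391 CPM, so the Schwann level was 126-fold higher in the young (50.4 to 312) and 294-fold higher in the old library (199 to 440). As a percent of the Schwann level, mesenchymal Ednrb stood at 0.794% for young and 0.340% for old cells, above 6 of 9 Schwann genes in each. All 9 belong to the Schwann gate itself, which limits their mesenchymal level, so this order cannot show whether mesenchymal cells transcribe Ednrb. Thinned to 1000 UMIs, 15 of 123 old Schwann cells (12.2%) and 4 of 10326 old mesenchymal cells (0.0387%) held an Ednrb UMI. A further 20 UMIs lay in 4 of the 18 old cells that passed more than 1 gate.

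Set side by side, the old library held most Edn1 and most Ednra UMIs in different cells, whereas Ednrb was also found in endothelium. Blood endothelial cells had a 96.5-fold higher CPM of Edn1 than mesenchymal cells and a 2.69-fold higher CPM of Ece1. Mesenchymal cells held 97.5% of the Ednra UMIs and made up 84.7% of the cells. Ednrb was 8.32-fold higher in endothelial than in mesenchymal cells, at low counts in both. Of the 9 genes, 4 were at least 2-fold higher in old endothelial than in old mesenchymal cells, namely Edn1, Ece1, Ednrb and Ace, and 3 at least 2-fold lower, namely Ednra, Agt and Agtr1a. Of 14421 genes with at least 20 UMIs, 8.56% were at least 2-fold higher and 16.2% at least 2-fold lower in the same comparison. Among old mesenchymal cells 905 of 10342 held an Ednra UMI, 195 an Agtr1a UMI, 34 an Agtr2 UMI and 35 an Ednrb UMI. Any of the 4 receptors was detected in 1143 cells (11.1%), against 812 of 10727 (7.57%) in the young library. Ednra and Agtr1a were detected together in 19 old and 8 young cells, and at this depth the other cells cannot be called receptor-free. In the young library 474 cells held an Ednra UMI and 181 an Agtr1a UMI. Whether both were found together more often than their separate counts give was not tested.

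**Figure D2:**
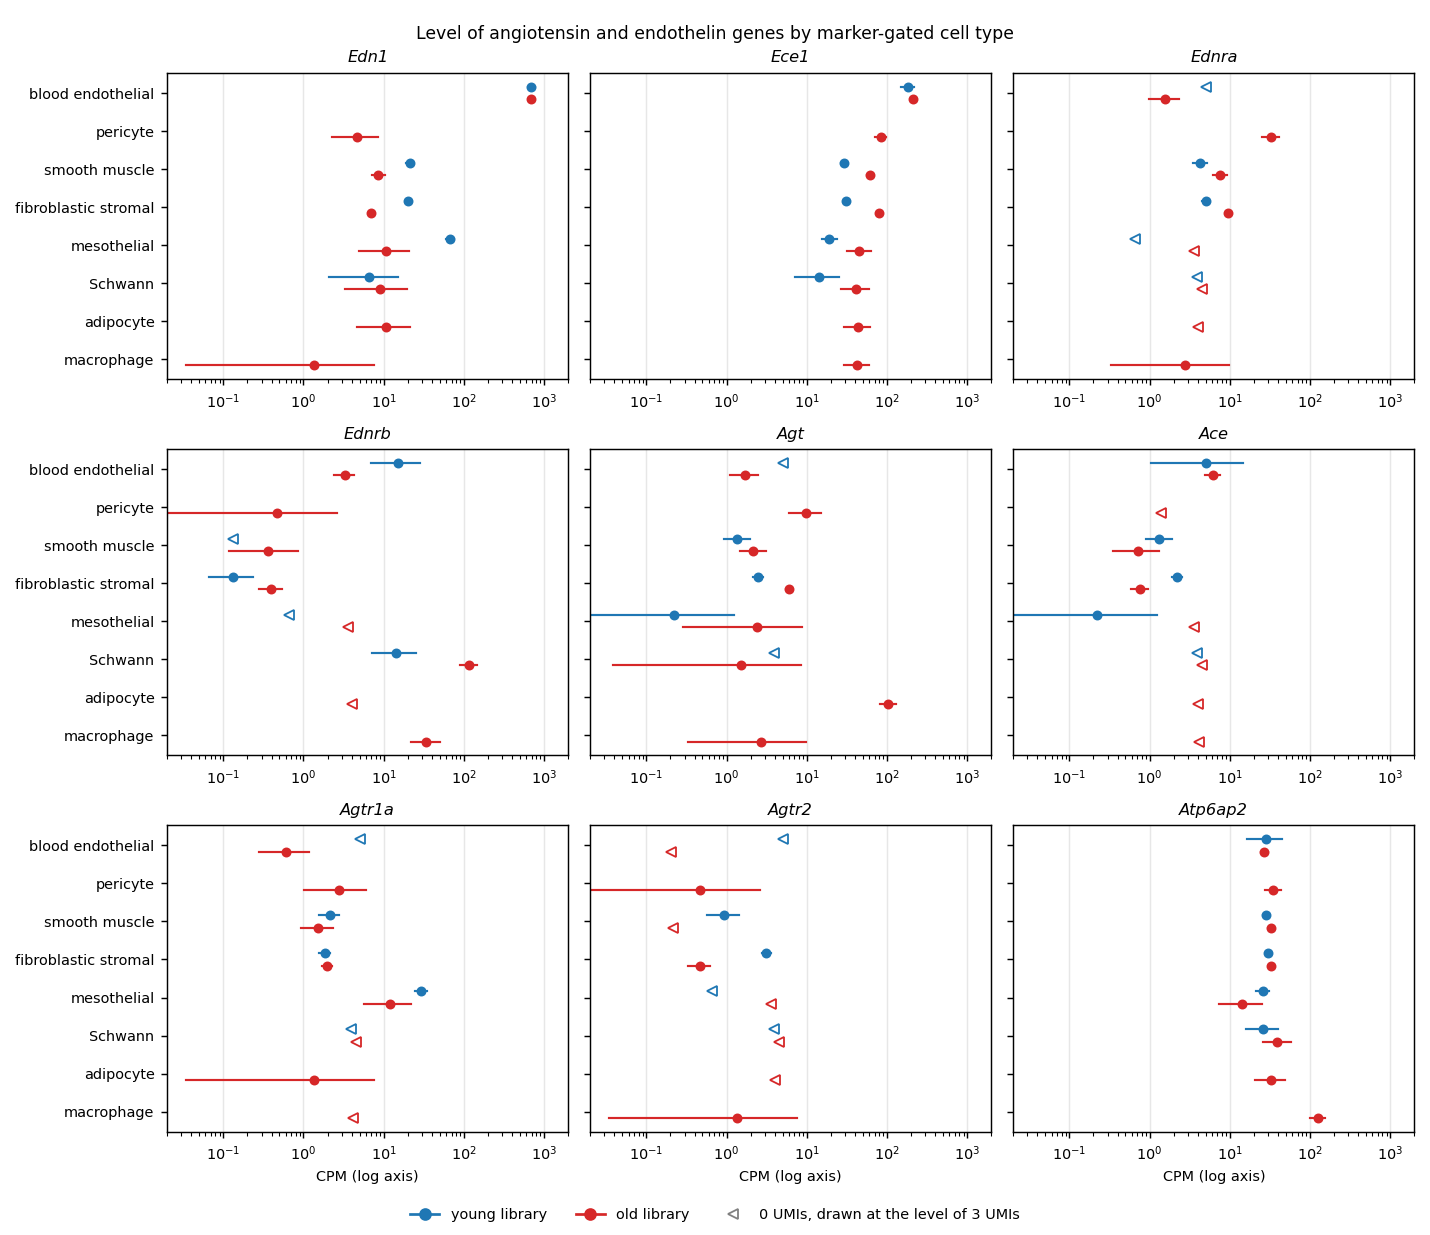
Level of each of the 9 genes in CPM (log axis) by cell type, with bars for the 95% Poisson interval and open triangles at the level of 3 UMIs where no UMI was found. Types with under 40 cells in a library are not drawn. Edn1 peaks in blood endothelium in both libraries, Ednra in the old pericyte-gated cells at 32.7 CPM, Ednrb in old Schwann cells at 115 CPM, Agt in old adipocytes at 102 CPM and Agtr1a in mesothelial cells.

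Agt, the precursor of all angiotensin peptides, was highest in adipocytes. The 110 old adipocytes held 76 Agt UMIs, or 102 CPM (80.7 to 128), which was 18.5-fold above old mesenchymal cells (14.3 to 23.5), and 33 of them had a UMI. The 7 young adipocytes held 11 UMIs, of which 9 were in a single cell. Young mesenchymal cells held 237 UMIs, or 2.23 CPM (1.96 to 2.54), and old ones 597 UMIs, or 5.55 CPM (5.12 to 6.02), a log2 difference of 1.31 (1.09 to 1.54). Mesenchymal cells held 94.8% of the Agt UMIs of young cells and 84% of those of old cells, close to their shares of 93.7% and 84.7% of all cells. Within the fibroblastic cells Agt followed the adipogenic gate, which rests on Pparg, Cebpa, Fabp4, Lpl, Cd36 and Cxcl14. Young adipogenic cells held 8.37 CPM (6.67 to 10.4) and old ones 12.2 CPM (10.8 to 13.6), which was 3.88-fold and 2.55-fold above the fibroblastic cells of no sub-gate. Old pericyte-gated cells held 21 UMIs, or 9.81 CPM, and the 16 young ones 2 UMIs, or 10.1 CPM. The log2 difference between libraries was 1.07 in adventitial cells (0.38 to 1.82) and 1.14 in fibroblastic cells of no sub-gate (0.76 to 1.53). It was 0.54 in adipogenic cells (0.18 to 0.91), 0.46 in cycling cells (-0.14 to 1.07) and 0.67 in smooth-muscle-gated cells (-0.11 to 1.44). The adipogenic gate held 961 young and 2143 old cells. The mesenchymal level was 5.42% of the adipocyte level in the old library, above all 18 adipocyte genes it was set beside, whose highest was 3.34%. Some of the 18 genes belong to the adipocyte gate itself, which limits their mesenchymal level.

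Ace, the enzyme that makes angiotensin II, was a low transcript. Old blood endothelial cells held 91 UMIs, or 6.16 CPM (4.96 to 7.57), and 79 UMIs lay in all old mesenchymal cells together, or 0.735 CPM (0.582 to 0.916). The endothelial level was 8.39-fold higher. Young mesenchymal cells held 216 UMIs, or 2.04 CPM (1.77 to 2.33), so the old level was 2.77-fold lower (log2 difference -1.47, interval -1.86 to -1.09). The difference was -1.86 in adventitial cells, -2.08 in adipogenic cells and -1.47 in fibroblastic cells of no sub-gate. It was -0.96 in cycling cells (-1.90 to -0.08), which is not past 2-fold, and -0.87 in smooth-muscle-gated cells, where the interval from -2.07 to 0.20 crosses 0. No Ace UMI was found in the pericyte-gated cells, macrophages, adipocytes or Schwann cells of the old library. These gates held few UMIs, and a level like the old mesenchymal 0.735 CPM could also leave none there. The young endothelial cells held 3 Ace UMIs, and the 16 young pericyte-gated cells 2, or 10.1 CPM.

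Atp6ap2, an accessory subunit of the vacuolar proton pump that also binds prorenin, was found in every major type. Its level was 29.7 CPM (28.7 to 30.7) in young and 32.5 CPM (31.4 to 33.6) in old mesenchymal cells and 28.3 and 26.8 CPM in blood endothelial cells. Young mesothelial cells held 26.0 CPM and old ones 14.3 CPM, the latter from 12 UMIs. Old macrophages stood apart at 91 UMIs, or 124 CPM (100 to 152), 3.82-fold above the old mesenchymal level (3.07 to 4.70).

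Agtr1a, the constrictor angiotensin receptor, was highest in mesothelial cells. The 400 young mesothelial cells held 131 UMIs, or 29.1 CPM (24.3 to 34.6), and 98 of them had a UMI, which was 15.4-fold above young mesenchymal cells (12.3 to 19.4). The 86 old mesothelial cells held 10 UMIs in 10 cells, or 11.9 CPM (5.73 to 22.0), which was 6.15-fold above old mesenchymal cells (2.91 to 11.5). Mesothelial cells made up 3.49% of the young library and held 39.6% of its Agtr1a UMIs. Young mesenchymal cells held 1.89 CPM (1.63 to 2.17) and old ones 1.94 CPM (1.69 to 2.23), a log2 difference of 0.04 with an interval from -0.24 to 0.33. Neither the smooth-muscle-gated cells (2.11 and 1.52 CPM) nor the old pericyte-gated cells (6 UMIs, 2.80 CPM) exceeded the fibroblastic cells beyond counting error. Both groups also carried fibroblastic transcripts. In young mesothelial cells Edn1 and Agtr1a were thus both above the mesenchymal level, while no Ednra UMI was found.

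Agtr2, the second angiotensin receptor, showed the widest difference between the libraries among the 9 genes in mesenchymal cells. All 283 young UMIs lay in mesenchymal cells, which made up 93.7% of young cells. The level was 2.67 CPM (2.37 to 2.997), and the UMIs were spread over 174 cells with up to 9 in a cell. Old mesenchymal cells held 43 UMIs in 34 cells, or 0.400 CPM (0.289 to 0.539), with at most 2 in a cell. The old level was 6.67-fold lower (log2 difference -2.74, interval -3.24 to -2.27). In the young library Agtr2 was highest in adventitial (6.44 CPM) and adipogenic fibroblastic cells (5.85 CPM), which did not differ beyond their intervals, followed by fibroblastic cells of no sub-gate (2.89 CPM), cycling cells (1.91 CPM) and smooth-muscle-gated cells (0.924 CPM, or 0.385 CPM with 4 markers per gate). In the old library all of the fibroblastic gates lay between 0.443 and 0.627 CPM, and the smooth-muscle-gated cells held none, which allows up to 0.217 CPM. The log2 difference was -3.76 in adventitial, -3.22 in adipogenic and -2.11 in cycling cells. No Agtr2 UMI was found in 1253 old blood endothelial cells, a limit of 0.203 CPM.

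**Figure D3:**
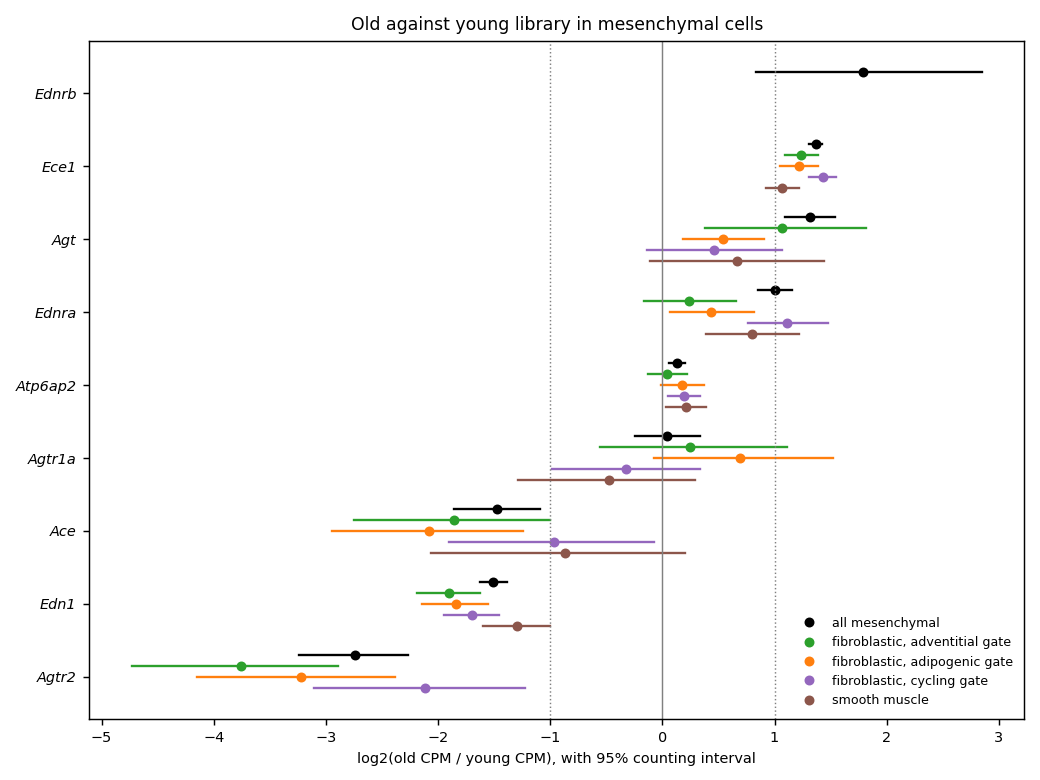
The log2 ratio of old to young CPM in all mesenchymal cells and in 4 of their gates, with 95% counting intervals; ratios with under 20 UMIs or with 0 UMIs in a library are left out, and dotted lines mark 2-fold. Ece1 lies to the right and Edn1, Ace and Agtr2 to the left in each gate drawn, and Ednra in adventitial cells lies at 0.24.

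Over all mesenchymal cells, 4 of the 9 genes were 2-fold or more above the young level in old cells (Agt, Ece1, Ednra and Ednrb) and 3 at least 2-fold lower (Edn1, Ace and Agtr2). The log2 intervals of Ednra (0.85 to 1.16) and of Ednrb (0.84 to 2.85, from 12 and 42 UMIs) reached below 2-fold. Among the 15170 genes with at least 20 UMIs, 9.6% were 2-fold or more higher and 6.64% 2-fold or more lower. The median log2 difference was 0.13 over the 9 genes and 0.13 over all 15170, so the median gene lay slightly higher in the old library on this scale. With size factors taken from the median ratio over genes, Ednra stood at 0.88 and was no longer past 2-fold, and the other 6 stayed past it. Markers of other cell types moved with the library as well: in mesenchymal cells the summed blood endothelial list stood at 30.03 CPM for young and 49.5 CPM for old cells, the macrophage list at 13.9 and 31.2 CPM, the pericyte list at 29.8 and 79.8 CPM and the smooth muscle list at 408 and 267 CPM. At least 8 of 10 macrophage markers and all 11 endothelial markers were detected in both libraries. Their part in the differences was not tested. Without the pericyte, smooth muscle and cycling gates Ednra stood at 0.85.

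**Figure D4:**
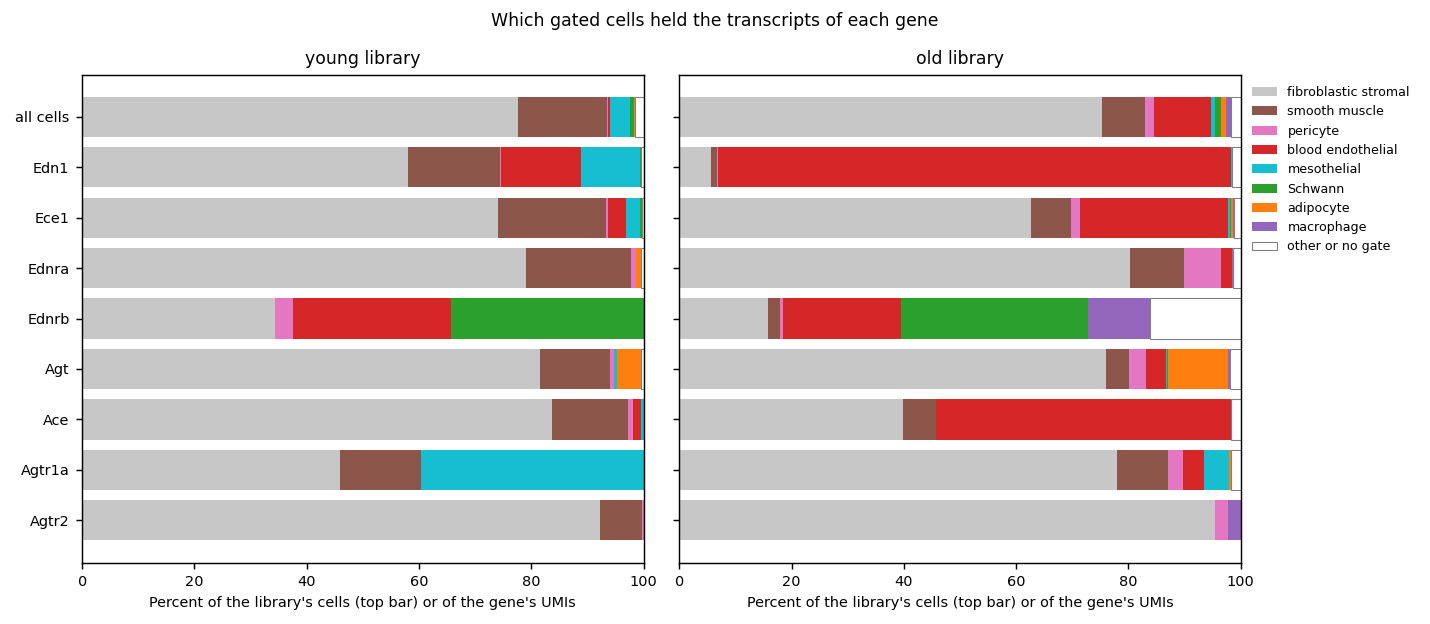
Stacked bars of the percent of each library's cells (top bar) and of the UMIs of 8 genes that lay in each gated cell type. Endothelial cells hold 91.4% of Edn1 UMIs in the old and 14.4% in the young library, and mesothelial cells hold 39.6% of the young Agtr1a UMIs. Mesenchymal types hold nearly all Ednra and Agtr2 UMIs in both, and make up 93.7% of young and 84.7% of old cells.

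Related genes were read in the same mesenchymal cells. Of the other angiotensin-processing proteases, 8 of 10 had at least 20 UMIs. Of these 8, 2 were 2-fold or more higher in old cells and none 2-fold lower, against 9.6% and 6.64% of all genes. Their median log2 difference was -0.18. Ren1, which encodes renin, had 0 UMIs in the young library and 28 UMIs in 20 old cells. Against a floor of 3 UMIs in the young library the old level was 9.21-fold higher (log2 3.20), and the log2 interval began at 2.81 with no upper limit. Enpep, the aminopeptidase that trims angiotensin II, stood at 1.68 and 3.44 CPM. The most counted of the rest were Ctsd at 171 and 215 CPM, Lnpep at 61.1 and 53.3 CPM, Prcp at 36.7 and 29.8 CPM and Anpep at 2.71 and 1.81 CPM. Of the angiotensin receptors and partners 2 of 7 could be read. Agtr1b, a close paralogue of Agtr1a with which reads could be shared, had 38 young and 12 old UMIs (log2 difference -1.68). Agtrap, which binds the type 1 receptor, stood at 23.5 and 24.1 CPM, and Mas1, the receptor for angiotensin 1-7, had no UMI in either library.

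The kinin genes, which encode the vasodilator peptides that Ace breaks down and their receptors, stood higher in the old library in 5 of the 6 that could be read, with a median log2 difference of 2.40, where 9.6% of all genes were 2-fold or more higher. The receptor Bdkrb1 had 40 young and 208 old UMIs (log2 difference 2.36, interval 1.87 to 2.89), and Bdkrb2 had 27 and 214 (2.97, 2.39 to 3.60). The precursor genes Kng1 and Kng2 had 148 and 815 UMIs and 300 and 1779 UMIs, and their split is uncertain because they are near-identical copies. Kng1 was among the 10 leading genes of the adipogenic gate in both libraries and Kng2 in the young one, and that gate held 961 young and 2143 old cells; the part of this in the difference was not tested. Cpm, a carboxypeptidase, had 13 and 55 UMIs, and Cpd, the sixth, stood at 54.0 and 46.9 CPM. The receptors were sparse, with Bdkrb2 detected in 25 young and 183 old cells.

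Of the other endothelin genes, Edn2 had 0 and 5 UMIs and Edn3 had none. Ecel1, a relative of the converting enzyme, had 4 UMIs in 3 young cells and 144 UMIs in 110 old cells (log2 difference 5.15, interval 3.76 to 7.05), and Ece2 stood at 1.92 and 2.50 CPM. Of 21 readable genes of Gq signalling and receptor coupling, 1 was at least 2-fold higher and none 2-fold lower, against 9.6% and 6.64% of all genes, with a median of 0.19. That gene was Plcb1, a phospholipase C, at 4.18 and 10.1 CPM. The other 20 ran from -0.93 for Rock2, a protein kinase, to 0.71 for Arrb1, an arrestin, and Plcb4, another phospholipase C, stood close to 2-fold lower at -0.91. Arrb1 and Plcb4 are named after their values were seen. The most counted others were Rhoa at 350 and 409 CPM, Rock2 at 309 and 163 CPM, Gnaq at 60.0 and 68.6 CPM and Gna11 at 58.4 and 67.2 CPM. Among 9 readable genes known to be induced by angiotensin II or endothelin, 3 were 2-fold or more lower in old cells and 3 were 2-fold or more higher. The lower ones were the matricellular genes Cyr61 (also Ccn1) at 255 and 114 CPM and Ctgf (also Ccn2) at 223 and 53.7 CPM, and the oxidase Nox4 with 557 and 215 UMIs. The higher ones were Rgs2 at 13.0 and 42.0 CPM, Rcan1 at 10.3 and 23.9 CPM and Cybb, an oxidase subunit of phagocytes, with 1 and 40 UMIs, each in a different cell, against 338 CPM in old macrophages. Of the rest, Egr1 stood at 140 and 217 CPM, Fos at 224 and 135 CPM and Myc at 13.4 and 21.4 CPM. These genes answer to many signals, and the list did not move in 1 direction.

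**Figure D5:**
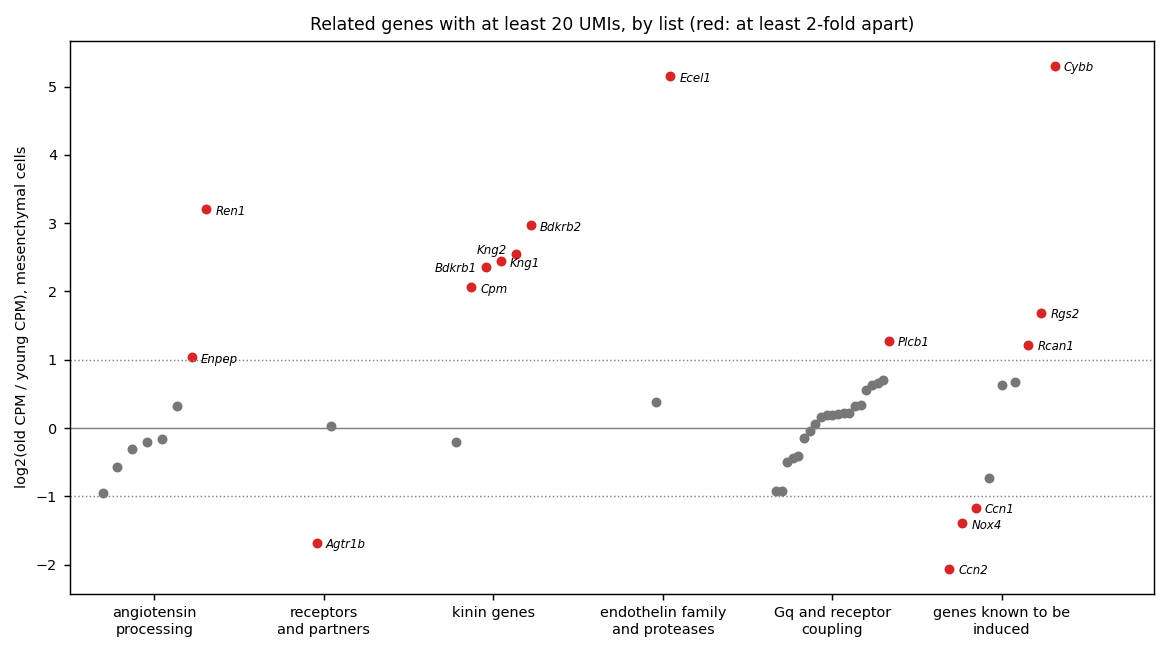
The log2 ratio of old to young CPM in mesenchymal cells for each related gene with at least 20 UMIs, grouped by list; genes at least 2-fold apart are red and named, and dotted lines mark 2-fold. Ren1 is drawn against a floor of 3 young UMIs. The kinin genes lie highest as a group, with a median of 2.40, and the genes known to be induced by these peptides lie on both sides of 0.

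The genes whose levels ran most like a member across 12 combinations of cell type and library with at least 50 cells were sought among 12354 genes, as Pearson r of log2(CPM + 1). These points share libraries, and the values are descriptions. Edn1 was most like Mrrf (0.93), Ctnnal1 (0.93) and Pgm5 (0.91), and Ednra was most like Nxph4 (0.97), Gramd3 (0.97) and Pla1a (0.95). For Ednrb the nearest were Dip2b (0.96), Gng2 (0.96) and Gtdc1 (0.95). Agt ran with Ddt (0.97), Mrap (0.96) and Slc36a2 (0.96). Agtr1a ran with Rspo1 (0.99), Ilvbl (0.97) and Mdk (0.95).

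In the annotation Ece1 lies on chromosome 4 (137862237 to 137965229), Ace on chromosome 11 (105967945 to 105989964), Ednrb on chromosome 14 (103814625 to 103844402) and Agtr1a on chromosome 13 (30336441 to 30382867). Agt (124556534 to 124569706) and Ednra (77663031 to 77724464) lie on chromosome 8, and Agtr2 (21484544 to 21489164) and Atp6ap2 (12587801 to 12617049) on the X chromosome. Edn1, Ece1, Ednra and Ace overlap a gene on the other strand (Gm47118, Gm13012, 4933431K23Rik and Gm11651), and Agtr1a overlaps Gm48161 on its own strand. The strand setting of the counting was not stated in the sources used here, so reads of these partners may be included.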

How the data were processed

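The authors deposited raw UMI counts per gene and cell barcode, not normalized, written by Cell Ranger 3.0.1 per the file headers and mapped to mm10 per the submitters' processing notes. The rule by which barcodes were kept was not stated in the sources used here. Barcodes with under 500 genes or over 10% mitochondrial UMIs were dropped. Scrublet (scanpy 1.11.5) marked 0 cells by its own threshold, so the highest scores were removed at 0.8% per 1000 cells (1302 young, 1504 old). Cells were gated by 3 or more markers of a list. Non-mesenchymal gates took precedence over mesenchymal ones, and lymphatic over blood endothelial, a rule set after seeing the cells. UMIs were summed per gate and library and given as CPM with exact Poisson 95% intervals, ratios with conditional Poisson intervals and shares with Clopper-Pearson intervals (scipy 1.17.1). A floor of 3 UMIs stood in for 0. With 1 library per age no test was made, and a difference is called past 2-fold among genes with at least 20 UMIs. The ratio step was tested on simulated counts. Named genes were the 9 members, related genes past 2-fold and up to 4 further ones per list with the most UMIs, and the 3 most similar genes of 5 members. Gene IDs were matched to GENCODE vM21 (31011 of 31053). Members and lists were chosen with earlier results of these data known. The 21 endothelial, 18 adipocyte and 9 Schwann genes set beside Edn1, Agt and Ednrb, and the TGACTAA motif, were added after values were seen. A gene of the list induced by these peptides is not reported here and was left out of that list's counts.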

Additional observations from a re-analysis of the deposited data

Results flagged for a closer look

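Ednrb differed between the libraries in opposite directions by cell type. Its log2 ratio of old to young was 1.79 in mesenchymal cells (12 and 42 UMIs) and 3.01 in Schwann cells (11 and 76 UMIs), but -2.20 in blood endothelial cells (9 and 48 UMIs), and the difference between types was not tested. The endothelial ratio rests on few cells: the 9 young UMIs came from 49 cells, with 4 of them in a single cell. Lymphatic endothelial cells were left out of the old value, and no young cell passed the lymphatic gate. Edn1 was also found in cells that passed no gate, at 22.2 CPM in the young (12 UMIs in 2 of 170 cells) and 57.7 CPM in the old library (24 UMIs in 15 of 141 cells), and these cells had medians of 3376.5 and 2423 UMIs.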

How the results depend on the processing

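No paired analysis was possible because each age has 1 library. Of 508 values recomputed for 86 results, 444 stayed within their counting interval or count limit, 64 moved and 0 were counted as reversed. Single levels, which are many of these results, have no direction to reverse. The log2 difference of Agtr1a, within counting error of 0, ran from -0.08 to 0.25, so its sign did change. Old endothelial Edn1 was 790 CPM with 4 markers per gate, 620 without removing high doublet scores and 810 as a mean over cells, against 691. Young endothelial Edn1 was 1175 with 4 markers and 1196 as a mean over cells, against 692. Old mesenchymal Edn1 was 8.33 as a mean over cells. The cause was not tested. The count of members 2-fold or more above the young level was 2 in adventitial cells (an alternative chosen after seeing the data), where Ednra stood at 0.24 and Ednrb had too few UMIs to be read. It was 3 under median-ratio size factors, without removing high doublet scores and without the mural and cycling gates, each time for want of Ednra, and the count of members lower was 3 throughout. The share of all genes past 2-fold is given only for all mesenchymal cells under the main processing. The counts under other settings therefore have no background to be judged against. Log2 differences ranged from -1.90 to -1.31 for Edn1, from 1.24 to 1.40 for Ece1, from 1.07 to 1.48 for Agt, from -3.76 to -2.62 for Agtr2 and from -1.86 to -1.46 for Ace. For receptors with under 100 UMIs in a type, depth limits the value to its interval.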
